A study of Mus musculus with 33 samples.

Results

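The expression of 33 genes of microglia, macrophages and the complement system was followed across genotype and sleep state in the frontal cortex of male mice. The genes were taken by symbol from the 21565 genes of the expression table, and all 33 symbols were present. By role they comprised 4 complement genes, 14 surface receptors and receptor adaptors, 5 lysosomal or phagocyte genes, 2 transcription factors, 5 leukocyte signalling genes and 3 markers of border macrophages. Microglia are the macrophages of the brain parenchyma and depend on signalling through the CSF1 receptor. In the adult cortex they are the main source of C1q, the protein that starts the classical complement cascade and that can tag synapses for removal by phagocytes. They also survey neurons through the fractalkine receptor CX3CR1 and the ADP receptor P2RY12, whereas macrophages of the meninges and perivascular spaces are known for the mannose receptor MRC1 and the haemoglobin scavenger receptor CD163.

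Mice of 8 to 19 weeks were kept in 12 hr light and 12 hr dark, were held in darkness for 36 hr beforehand, and were all sampled at zeitgeber time 6. Control sleep (CS) was ad libitum sleep, sleep deprivation (SD) lasted 6 hr on a slowly moving treadmill, and recovery sleep (RS) was 2 hr of sleep after 4 hr of deprivation. Wild-type C57BL/6J mice (WT) gave 6 CS, 7 SD and 7 RS libraries. Mice with loxP sites around exon 11 of the transcription factor gene Mef2c and no Cre (Mef2c f/f, the Cre-free control) gave 4 CS and 3 SD libraries. Mef2c f/f mice that carried Camk2a-Cre, which acts in excitatory forebrain neurons, gave 3 CS and 3 SD libraries (Mef2c-cKO). Some Mef2c-cKO mice also carried 1 recombined Mef2c allele in every cell, microglia included. This appears to hold for 2 of the 3 Mef2c-cKO CS mice, and the labels do not say which. Each library is from 1 mouse, so p-values measure the spread between these mice, and in bulk RNA fewer cells of a type and less RNA per cell cannot be told apart. Levels are given as rescaled CPM, that is, the deposited counts per library scaled to a common total (CPM), divided by a median-of-ratios factor for each library. Differences are log2 fold changes of rescaled CPM + 0.5, which understate the change of low genes. A gene was said to rise or fall where limma's p, adjusted by Benjamini-Hochberg over all genes tested, was 0.05 or lower and the log2 fold change was 0.3 or larger in size (for interactions, by the adjusted p alone).

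The promoters of several members are shown because 1 of the 33, Spi1, encodes PU.1, the ETS-family factor that specifies the macrophage lineage. RefSeq promoter windows (GRCm38.p6, 250 bases before to 50 bases after a transcription start) were matched by symbol for 25 of the 33 members. The PU.1 core GAGGAA, on either strand, was found for 16 of these 25, against 31.3% of 27025 genes with a window. Each stretch below covers the 60 bases directly before the transcription start, 5′ to 3′ on the strand of the gene, and capitals mark the core or its reverse complement TTCCTC. C1qb, P2ry13, Trem2 and Laptm5 were higher in Mef2c-cKO than in Mef2c f/f cortex after deprivation, as described with the comparison of genotypes, Mrc1 marks border macrophages, and the P2ry12 stretch holds no core.
C1qb, chr4:136886201-136886260, minus strand: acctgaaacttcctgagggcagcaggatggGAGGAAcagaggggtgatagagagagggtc
P2ry13, chr3:59210883-59210942, minus strand: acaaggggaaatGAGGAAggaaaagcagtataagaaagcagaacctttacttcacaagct
Trem2, chr17:48346341-48346400, plus strand: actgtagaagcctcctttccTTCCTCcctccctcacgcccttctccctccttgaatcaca
Laptm5, chr4:130913256-130913315, plus strand: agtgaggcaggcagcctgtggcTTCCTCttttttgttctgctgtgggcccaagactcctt
Mrc1, chr2:14229354-14229413, plus strand: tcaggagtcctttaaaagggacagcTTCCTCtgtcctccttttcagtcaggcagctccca
P2ry12, chr3:59262986-59263045, minus strand: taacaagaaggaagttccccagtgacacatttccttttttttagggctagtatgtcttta
A composite ETS-IRF motif (GGAANNGAA, either strand) was present in windows of 2 of the 25 members and of 9.42% of genes. The MEF2 motif (CTANNNNTA, either strand) was present for 5 of the 25 and for 23.5% of genes. Such matches describe letters in a window and not binding.

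Totals ranged from 18935045 to 249046089 reads per library. The WT libraries differed from the Mef2c f/f and Mef2c-cKO libraries in which genes held reads, since 494 genes were at 0 in all of the latter and above 1 CPM in every WT library, and 5 genes were at 0 in all WT libraries and above 1 CPM in all others. The listed CPM summed to 925580 to 985958 in the WT libraries and to 1e+06 in every other library. The WT totals thus included reads of genes that are not listed, and the other totals did not. Which gene sets the reads were counted on is not given in the sources used here. Among the members, Itgam, the alpha chain of complement receptor 3, differed in which libraries held reads, with 0 to 2 reads in every WT library and 306 to 1678 reads in the others. Levels of WT and of the other libraries were therefore not compared. Across these sets only changes within a genotype were compared, by the interaction test. Irf8, a partner of PU.1, was listed at 0 in all 33 libraries. An annotated gene overlaps each of these members on the same strand (Gm49368 over Itgam, Gm20388 over Irf8). Rescaled CPM of the whole Mef2c gene was 957 to 1727 in Mef2c-cKO and 1080 to 1406 in Mef2c f/f libraries, which checks nothing, since only exon 11 is removed and only in some of the cells.

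A pair of libraries stood apart for the members. The library labelled Mef2c-cKO CS replicate 8 was the highest of the 6 Mef2c-cKO libraries for 29 of the 32 members that reached 1 CPM in any of these 6, whereas it was the highest for 29.6% of 13413 genes. It exceeded the next Mef2c-cKO library at least 2-fold for 22 of the 32 members and for 3.15% of all genes. WT CS replicate 2 held 22.2 rescaled CPM of C3, the central complement component, from 1335 reads, while no other WT library was above 0.332. The same WT library held 246 rescaled CPM of albumin (Alb) against at most 3.38 in the other WT libraries, and 95 of 13999 genes were there at least 10-fold above every other WT library, among them the liver-expressed genes Apoa1, Apob and Fgb, the complement genes C9, Hc and Cfi, and C3 itself (these genes were chosen after their values were seen). Their part in the C3 value was not tested, and C3 was in no test because its level elsewhere was too low. Comparisons with Mef2c-cKO CS are given with and without replicate 8, and those with WT CS with the calls that end without replicate 2.

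Per kilobase of the merged exons of a gene, the lysosomal cysteine protease gene Ctss led the members, at a mean of 30.2 rescaled CPM per kb in WT CS libraries. P2ry12 followed at 25.5, the C1q chains C1qb at 19.3 and C1qa at 17.5, and Tyrobp, the signalling adaptor of TREM2, at 17.3. C1qc (11.7), Csf1r (11.2) and Ly86 (11.1) came next, and these neighbours differed by less than the spread between mice. Of the members tested in WT, Cd163 was lowest at 0.225 per kb. In Mef2c f/f CS libraries Ctss again led (25.6 per kb), ahead of Tyrobp (17.3), C1qb (13.4) and P2ry12 (12.6). The 3 C1q genes lie within 18675 bases of chromosome 4 (136880129 to 136898803, mm10). Between mice of a group the members were least variable in Mef2c f/f SD libraries (median coefficient of variation 6.78%) and most variable in Mef2c-cKO CS libraries (75.6%), the group that holds replicate 8. In WT the median was 19.1% in CS, 16.3% in SD and 13.6% in RS.

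**Figure D1:**
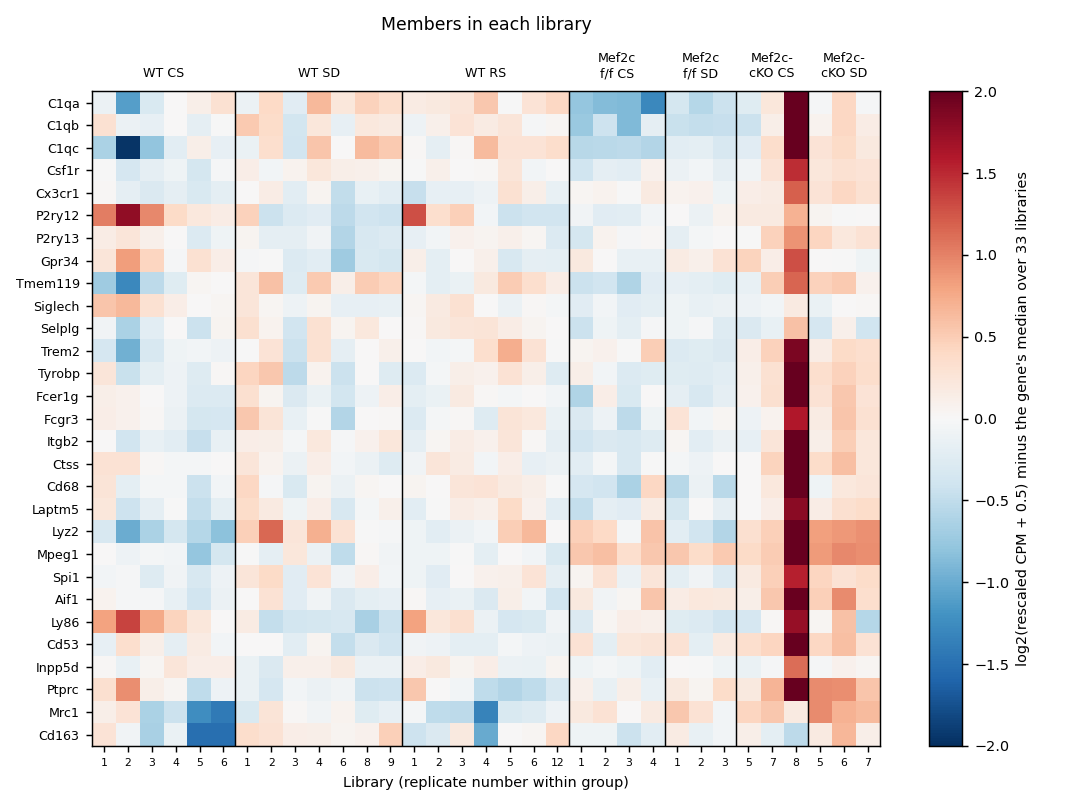
Each column is a library and each row a member, with Irf8, Itgam, C3 and Pf4 left out. Color gives log2(rescaled CPM + 0.5) minus the median of the gene over all 33 libraries, clipped at -2 and 2. Mef2c-cKO CS replicate 8 stands out as a column of high values in which Mrc1 and Cd163 are not raised, and WT and other libraries should be read only within their own block of columns.

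In WT cortex, 6 hr of sleep deprivation split the members. Lyz2, C1qc, Tmem119, Cd163 and Itgb2 rose, and P2ry12, Ly86, Gpr34 and Siglech fell. Thus 5 of the 29 members tested rose and 4 fell, where 24.6% of 12913 genes rose and 20.5% fell, so the members did not exceed the background in either direction. Their median log2 fold change was 0.10, against 0.04 over all genes.

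Among the complement genes, C1qc, which encodes the C chain of C1q, lay between 4.72 and 21.5 rescaled CPM in WT CS (median 14.8) and between 15.1 and 31.1 in WT SD (median 25.2). Every SD library was above the CS median, but the groups overlapped (log2 fold change 0.83 ± 0.28 SE, adjusted p = 0.0254, n = 6 and 7, limma). C1qa was at 8.95 to 24.6 in CS (median 19.01) and 16.8 to 31.3 in SD (median 25.4), a log2 fold change of 0.43 that did not pass (adjusted p = 0.085). C1qb differed least of the chains, at 18.6 to 26.2 in CS and 16.3 to 30.6 in SD (0.17, adjusted p = 0.306). The 3 chains are assembled into 1 protein, yet their differences ran from 0.17 to 0.83 in the same libraries. WT CS replicate 2 was the lowest library for C1qc and C1qa, and without it the differences were 0.56 and 0.25, with the C1qc call kept.

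The receptors moved in opposite directions. P2ry12, the receptor through which microglia sense ADP, lay between 37.3 and 117 in WT CS (median 55.1) and between 23.3 and 46.8 in WT SD (median 25.8). Only SD replicate 1, at 46.8, reached into the CS range, and the next SD library was at 28.7 (log2 fold change -1.01 ± 0.24, adjusted p = 0.00557). P2ry12 and P2ry13 lie within Med12l on the opposite strand, whose own level was 192 to 242 in CS and 134 to 209 in SD, and how the counting used strand is not given in the sources used here, so the part of Med12l reads was not tested. Gpr34, a lysophosphatidylserine receptor, fell from 10.7 to 20.1 (median 13.4) to a range of 6.5 to 10.9 (median 9.02), with overlap at the edges (-0.59 ± 0.14, adjusted p = 0.00599). It overlaps Cask on the opposite strand, as Csf1r does Hmgxb3 and Cx3cr1 does Wdr48 and other genes. The part of reads from these genes was not tested either. Siglech, a sialic acid binding lectin of microglia, fell by 0.32 on the log2 scale (adjusted p = 0.0389), a call that was kept in only 4 of the 13 fits with 1 library left out and ended without WT CS replicate 1, 2 or 3 or WT SD replicate 2, 3, 4, 6, 8 or 9. Tmem119, a microglial membrane protein used as a marker of parenchymal microglia, went the other way, from 3.98 to 10.8 (median 7.98) in CS to 8.70 to 16.1 (median 14.3) in SD, with overlapping groups (0.76 ± 0.20, adjusted p = 0.00922). Itgb2, the beta chain shared by leukocyte integrins, rose by less, from a mean of 2.68 ± 0.37 (SD, n = 6) to 3.48 ± 0.28 (n = 7; log2 fold change 0.33, adjusted p = 0.0149), and no longer passed without WT CS replicate 5 or replicate 2. Csf1r was at 47.9 to 60.6 in CS and 59.0 to 71.7 in SD, and its log2 fold change of 0.26 stayed under the minimum size of 0.3 although its adjusted p was 0.0169. Without WT CS replicate 2, which was the highest CS library for P2ry12 and Gpr34 and the lowest for Tmem119, these gave -0.80, -0.48 and 0.59 and kept their calls, while Siglech (-0.24) and Itgb2 (0.29) lost theirs and Mrc1 (0.66) gained one.

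Lyz2, which encodes lysozyme and is highly expressed in blood-borne myeloid cells, gave the clearest separation. It was at 2.23 to 3.85 in WT CS (median 3.07, from 127 to 737 reads per library) and at 4.85 to 11.5 in WT SD (median 6.12). Every SD library was above every CS library (1.02 ± 0.18, adjusted p = 0.0014). Lyz2 was the only tested member without overlap in the higher direction, which 4.68% of all tested genes showed, and no tested member was without overlap in the lower direction, shown by 10.4% of genes. Its near-identical paralog Lyz1 was at 0.243 or below in WT CS and SD libraries, although the unique assignment of reads could still split the pair. Ly86, which encodes the MD-1 partner of the CD180 receptor, fell from 7.77 to 20.7 (median 12.1) to 4.76 to 8.75 (median 5.92), again with SD replicate 1 as the highest of its group (-0.94 ± 0.19, adjusted p = 0.00246, or -0.79 without WT CS replicate 2, its highest CS library). Of the border macrophage markers, Cd163 lay between 0.222 and 1.98 in CS (9 to 269 reads) and between 1.63 and 2.35 in SD. The groups overlapped and the CS libraries spread widely (0.81 ± 0.26, adjusted p = 0.0202). Cd163 entered the test only because every SD library reached 1 CPM, which not every CS library did. Its entry thus favoured a rise. Mrc1 was at 2.71 to 9.76 and 6.40 to 9.67 (0.49, adjusted p = 0.0943). Pf4, a chemokine of border macrophages, was below 1 CPM in most WT libraries and was not tested. Its rescaled CPM was 0.113 to 0.337 in CS and 0.544 to 1.05 in SD, from 5 to 118 reads, and these ranges do not overlap. The remaining members tested (Cx3cr1, P2ry13, Selplg, Trem2, Tyrobp, Fcer1g, Fcgr3, Ctss, Cd68, Laptm5, Mpeg1, Spi1, Aif1, Cd53, Inpp5d and Ptprc) did not pass, and the furthest below 0 among them was Ptprc, the leukocyte common antigen, at -0.36 (adjusted p = 0.102).

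**Figure D2:**
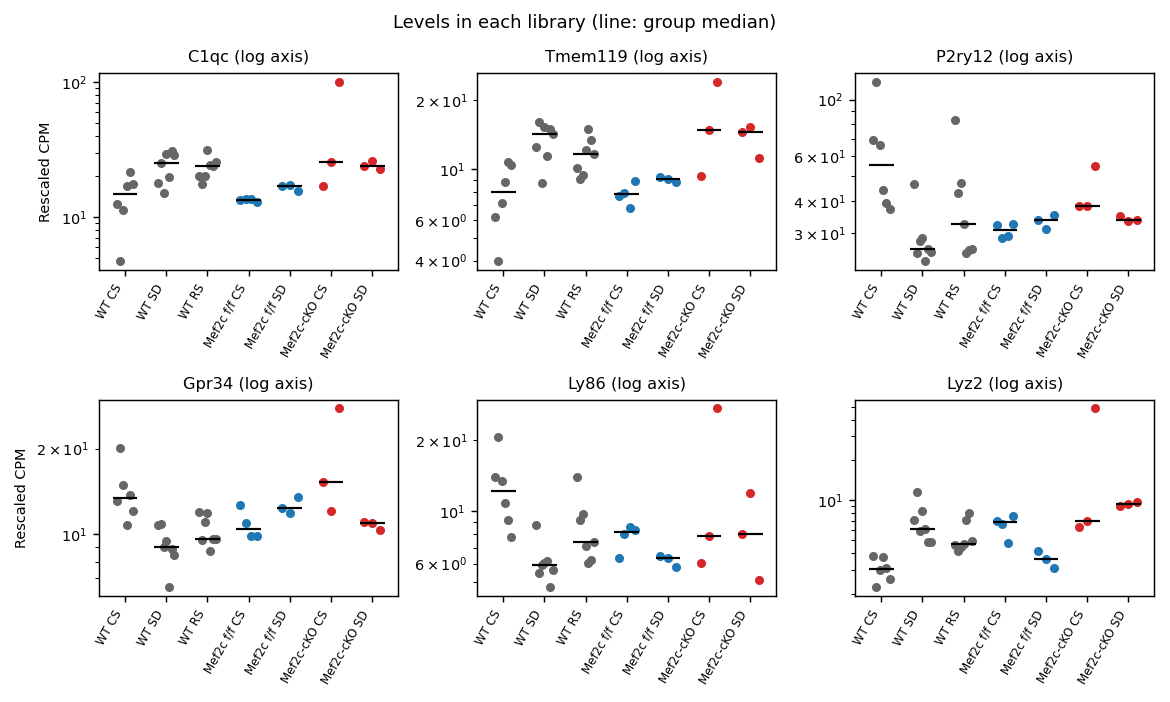
Rescaled CPM (log axes) of 6 members in each library, with a line at each group median (WT grey, Mef2c f/f blue, Mef2c-cKO red). WT SD libraries lie higher than WT CS libraries for C1qc, Tmem119 and Lyz2 and lower for P2ry12, Gpr34 and Ly86, and Mef2c-cKO CS replicate 8 is the highest red point in each panel.

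The fold changes in this comparison moved with the GC content of the transcripts. Across 12263 genes the WT CS to SD log2 fold change had a Spearman correlation with GC content of 0.73, as a description across genes that share the same libraries. For single libraries, the deviation of each gene from its mean over all WT libraries was correlated with GC content. This correlation ran from -0.780 to -0.141 in WT CS and from -0.017 to 0.771 in WT SD. It is relative to the other WT libraries, so values of opposite sign are partly built in. The members that rose included C1qc (57.5% GC) and Tmem119 (59.1%), and those that fell included Gpr34 (37.1%), P2ry12 (38.6%) and Ly86 (45.4%). Lyz2 (48.3%) and Cd163 (47.9%) rose although they lay below the median of all genes (50.1%). After a correction for GC content and length, 3 members rose (Lyz2, Cd163 and Mrc1) and 6 fell (Ly86, P2ry12, Tyrobp, Fcer1g, Aif1 and C1qb), where 9.21% of genes rose and 11.01% fell. Lyz2 (0.99), Cd163 (0.92), Ly86 (-0.90) and P2ry12 (-0.58) kept their calls, whereas C1qc (0.27), Tmem119 (0.25), Itgb2 (0.12), Gpr34 (-0.12) and Siglech (-0.14) lost theirs and C1qb turned to -0.42. The scale mattered as well. On the deposited CPM scale the middle of all genes lay at 0.30 (log2). There 16 members rose and 3 fell, where 6106 of 12913 genes rose and 801 fell. With quantile normalization 3 members rose and 7 fell, where 2315 genes rose and 2665 fell. P2ry12 and Ly86 fell and Lyz2 rose under each of these 4 scalings.

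**Figure D3:**
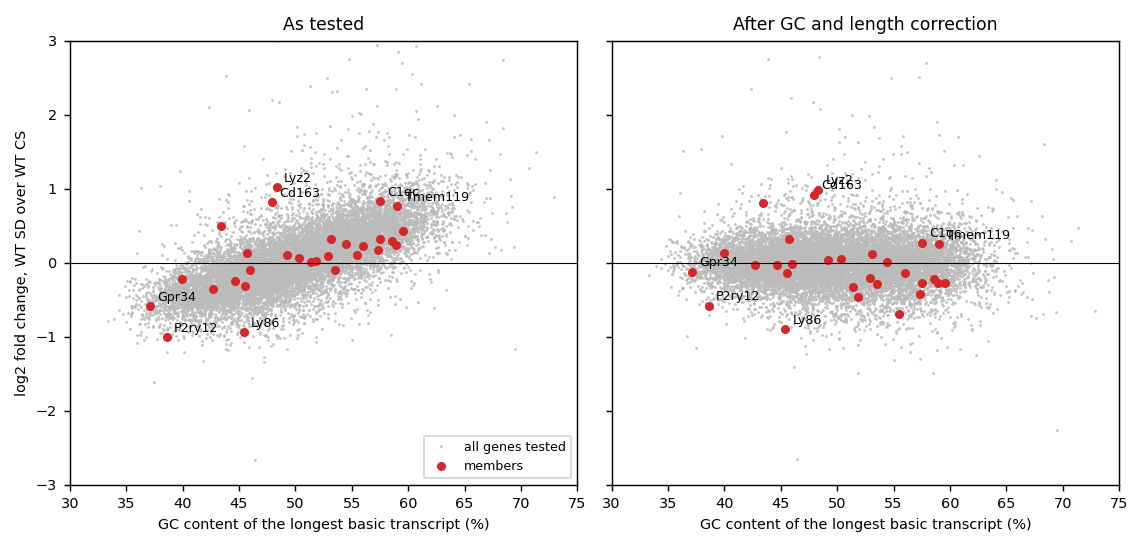
WT CS to SD log2 fold change of each tested gene (grey) and of the members (red) against the GC content (%) of the longest transcript, as tested (left) and after correction for GC content and length (right). On the left the cloud and the members rise with GC content, with P2ry12 and Gpr34 at the low end and C1qc and Tmem119 at the high end, and on the right Lyz2 and Cd163 stay high and P2ry12 and Ly86 stay low.

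Markers of blood and meninges moved with Lyz2 and Cd163. All 5 erythroid genes rose in WT SD (median log2 fold change 1.59), and their summed level was 28.2 to 118 in WT CS and 97.9 to 285 in WT SD. Meningeal fibroblast genes rose for 5 of 7 tested, Col1a1 by 2.34 on the log2 scale. Some of the 7 entered the test only because every SD library reached 1 CPM, which favours a rise. Sums over the whole list, which do not depend on that filter, were 11.5 to 54.6 in CS and 65.6 to 105 in SD. The 17 blood leukocyte markers were too low to test, summing to 0.69 to 2.03 in CS and 1.79 to 4.49 in SD. The part of blood and meninges in the Lyz2 and Cd163 results was not tested. Other phagocyte genes on fixed lists gave a mixed count in this comparison: of 43 other microglial genes 9 rose and 9 fell, of 18 genes of activated microglia 9 rose and 1 fell, and of 18 other complement genes 3 rose (C4b by 1.18) and 5 fell (C7 by 1.35). Of the microglial genes that rose, Crybb1 (mean of 0.85 rescaled CPM in WT CS) entered the test only through the SD libraries. All 10 antigen presentation genes tested rose, led by the class II genes H2-Eb1 (1.30) and Cd74 (1.204). Some of them entered the test only because every SD library reached 1 CPM, which favours a rise. Among these were Cd74 (0.321 to 2.70 rescaled CPM in WT CS) and H2-Aa (0.301 to 1.28).

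**Figure D4:**
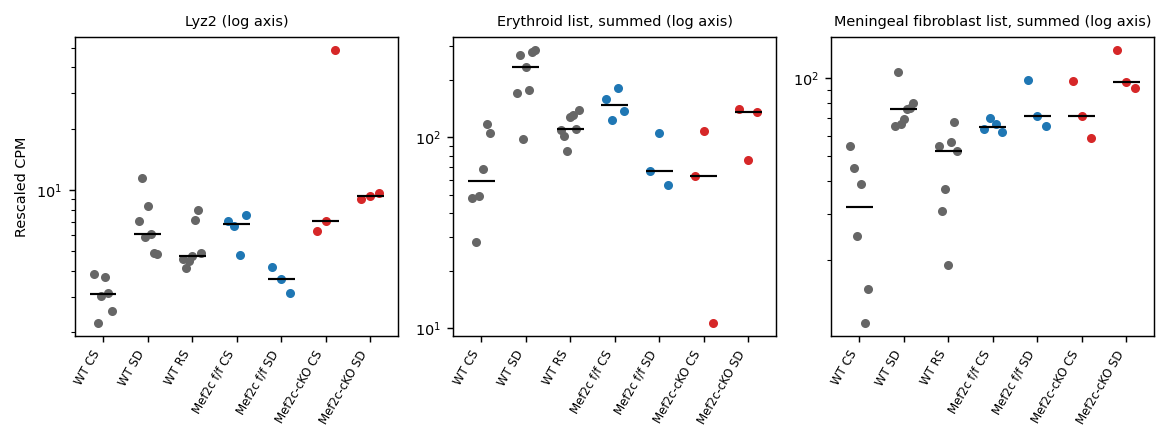
Rescaled CPM (log axes) of Lyz2 and the summed rescaled CPM of the erythroid and meningeal fibroblast lists in each library, with a line at each group median. By their medians all 3 are higher in SD than in CS in WT, Lyz2 and the erythroid sum are lower in SD in Mef2c f/f, and Mef2c-cKO CS replicate 8 has the highest Lyz2 (48.4) and the lowest erythroid sum (10.7).

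After recovery sleep 3 of the 28 members tested were higher than in control sleep and 1 was lower, against 9.28% and 8.22% of all genes. C1qc was at 17.5 to 31.2 in WT RS (median 24.0; 0.81 ± 0.27, adjusted p = 0.0478), Selplg, the P-selectin ligand, at 11.3 to 13.5 against 6.999 to 11.7 (0.35, adjusted p = 0.0488), and Gpr34 at 8.72 to 11.9 (-0.41, adjusted p = 0.0444). Lyz2 was at 4.16 to 8.01 in RS, with every library above the highest CS library at 3.85 (0.71 ± 0.16, adjusted p = 0.0329). P2ry12 spread from 24.9 to 82.8 in RS (median 32.6) and did not pass (-0.63, adjusted p = 0.12), nor did Ly86 (-0.52, adjusted p = 0.0842), Tmem119 (0.57, adjusted p = 0.0527) or Trem2, a lipid receptor of phagocytes (0.49, adjusted p = 0.0505). Most of these values lay close to the threshold, and the count of members that passed went from 0 (for example without WT CS replicate 2) to 8 as single libraries were left out. After the GC correction only Lyz2 passed.

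Between sleep deprivation and recovery no member passed in limma, where 0.0232% of all genes did. At an unadjusted p of 0.05, 2 of 29 members and 683 of 12921 genes were below the threshold. Neither edgeR nor DESeq2 on the recovered reads called a member. The furthest from 0 were Ly86 (0.42, adjusted p = 0.797) and Mrc1 (-0.37), and RS medians of P2ry12 (32.6) and Ly86 (7.37) lay between those of SD and CS.

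In Mef2c f/f mice no member passed between CS and SD in limma, and 0.0403% of all genes did. Unadjusted p was at most 0.05 for 6 of 30 members and for 2111 of 12410 genes. Of the members edgeR called 0 and DESeq2 called 3, where DESeq2 called 3.76% of all genes. Lyz2 was lower after deprivation, at 4.19, 3.66 and 3.11 rescaled CPM in the SD libraries against 7.03, 6.66, 4.81 and 7.58 in CS. These groups did not overlap (-0.75, adjusted p = 0.103 in limma; called lower by DESeq2), and the order was the reverse of that in WT. C1qa was at 15.4, 13.3 and 14.5 in SD against 11.4, 10.7, 10.5 and 7.83 in CS (0.50, adjusted p = 0.141). C1qc was close in every CS library, at 13.4, 13.5, 13.6 and 13.01, and reached 17.1, 17.3 and 15.7 in SD (0.31, adjusted p = 0.142). Both C1q chains were without overlap and were called higher by DESeq2 only. The share of all genes without overlap was not taken for this comparison. Trem2 pointed down, at 5.02, 5.13 and 4.99 in SD against 6.41, 6.57, 6.16 and 8.86 in CS (-0.42, adjusted p = 0.184), while P2ry12 hardly differed, at 33.7, 31.1 and 35.4 against 32.3, 28.7, 29.1 and 32.6 (0.12, adjusted p = 0.475). Ly86 gave -0.30 (adjusted p = 0.255) and Gpr34 0.21 (adjusted p = 0.36). No gene of any of the other phagocyte lists passed either.

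The response to deprivation differed between Mef2c f/f and WT for 4 of 30 members in limma's test of the interaction, 2 in each direction, where the share of all genes was 9.35% higher and 5.78% lower. The interaction is the log2 fold change of Mef2c f/f minus that of WT. It was 1.13 ± 0.35 for P2ry12 (adjusted p = 0.0411), 0.80 ± 0.22 for Gpr34 (0.0285), -0.74 ± 0.24 for Trem2 (0.0462) and -1.77 ± 0.29 for Lyz2 (0.0073). Lyz2 was up in 7 of 7 WT SD libraries relative to every CS library and down in 3 of 3 Mef2c f/f SD libraries. The erythroid list moved with it, with all 5 genes lower in the interaction and sums of 123 to 183 in Mef2c f/f CS against 56.4 to 105 in SD. The interaction followed GC content too (Spearman -0.77 across 12451 genes), and after the GC correction P2ry12, Gpr34 and Trem2 no longer passed while Lyz2 did. With CPM as deposited the median of all genes in this test was -0.30. There 1 member was higher and 4 were lower, where 507 of 13106 genes were higher and 2919 lower. P2ry12 and Trem2 each passed in only 7 of 20 fits with 1 library left out. Genotype and whatever else separates the WT libraries from the others cannot be told apart here.

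In Mef2c-cKO mice no member passed between CS and SD in limma, with 0.0234% of all genes called. Unadjusted p was at most 0.05 for 2 of 30 members and 391 of 12810 genes, and edgeR and DESeq2 called no member. The median log2 fold change of the members was -0.37, with 28 of 30 negative, and this rested on CS replicate 8. Without that library the median was 0.18 and 26 of 30 were positive, and still none passed. Mpeg1, the perforin-like gene of macrophages, shows the dependence: it was at 12.6 and 13.7 in CS replicates 5 and 7, at 103 in replicate 8, and at 17.4, 18.9 and 18.5 in SD. Mrc1, at 10.9, 11.9 and 9.11 in CS and 15.9, 13.3 and 12.6 in SD, and Cd163, at 1.72, 1.30 and 0.935 against 1.84, 2.76 and 1.73, were the pair with positive values with all libraries (0.38 and 0.52, adjusted p = 0.998 each). Gpr34 (-0.65) and P2ry12 (-0.33) were negative with all libraries and stayed negative without replicate 8 (-0.32 and -0.16). The interaction of genotype with deprivation in Mef2c-cKO against Mef2c f/f mice passed for no member in limma, where 0.00778% of all genes did. Its unadjusted p was at most 0.05 for 2 of 30 members and 1005 of 12860 genes, and edgeR and DESeq2 called no member. The median of the members was -0.36, or 0.13 without replicate 8.

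The profile of Mef2c-cKO CS replicate 8 was uneven among the members. C3 was at 5.19 rescaled CPM from 211 reads, 20.01 times the next Mef2c-cKO library. Mpeg1 (103) was 5.44 times, Lyz2 (48.4) 5.002 times, the lysosomal gene Cd68 (27.4) 4.62 times and C1qc (100.1) 3.85 times above it. By contrast P2ry12 (54.9) was 1.44 times, P2ry13 (15.6) 1.38 times and Siglech (15.0) 1.12 times higher, so these receptors of homeostatic microglia were among the members raised by little. Of the border macrophage genes, the 3 members were not raised, with Mrc1 at 0.571, Cd163 at 0.338 and Pf4 at 0.602 of the highest other library, whereas 6 of 8 others on a fixed list were highest there, 3 of them at least 2-fold (Folr2 by 4.60 times), and that list summed to 127 against 53.0 and 53.2 in the other CS libraries. Other lists moved with it (of each, the gene with the highest ratio is named, chosen after its value was seen). All 20 interferon response genes were highest there, 17 of them at least 2-fold (Mx1 by 8.10 times), as were 20 of 21 genes of activated microglia (Cst7 by 10.7 times) and 44 of 48 other microglial genes (Tlr2 by 8.02 times). Gfap, the filament gene of reactive astrocytes, was at 1368 there against 68.9 and 122 in the other Mef2c-cKO CS libraries. No excitatory neuron, inhibitory neuron or oligodendrocyte marker was at least 2-fold above the next library, and albumin was at 0.0738. What set this mouse apart was not tested.

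Under control sleep, Mef2c-cKO cortex was higher than Mef2c f/f cortex for all 30 members in the direction of the difference, yet none passed in limma, where 7.67% of all genes did. Unadjusted p was at most 0.05 for 13 of 30 members and for 3557 of 12681 genes. Of the members edgeR called 2 (8.41% of all genes) and DESeq2 called 12 (16.5% of all genes), and each of these members was higher. With CPM as deposited the median of all genes was 0.13 and 3 members passed (9.68% of all genes). The groups did not overlap for 8 members in the higher direction (13.4% of all genes) and for 0 in the lower (13.5%). The largest difference was that of C1qa, at 16.6, 23.4 and 90.2 in Mef2c-cKO against 11.4, 10.7, 10.5 and 7.83 in Mef2c f/f (1.66, adjusted p = 0.0624). C1qc gave 1.36 (adjusted p = 0.107), from 16.9, 25.5 and 100.1. Both chains were higher in each Mef2c-cKO library than in any Mef2c f/f library. P2ry12, at 38.1, 38.2 and 54.9 against 28.7 to 32.6, had the smallest adjusted p of the members (0.49, adjusted p = 0.0607), and Tmem119 gave 0.90 (adjusted p = 0.0655). Lyz2 differed by 0.97 (adjusted p = 0.309), which came from replicate 8 alone: the other CS libraries were at 6.30 and 7.03, inside the Mef2c f/f range of 4.81 to 7.58. Without replicate 8 the median of the members fell from 0.76 to 0.26, 27 of 30 stayed positive, C1qa passed (0.94, adjusted p = 0.0294, where 4.79% of all genes passed) and Lyz2 was at 0.05. C1qc (0.61, adjusted p = 0.0606), Tmem119 (0.57, adjusted p = 0.113) and P2ry12 (0.31, adjusted p = 0.110) were smaller and did not pass in limma. The edgeR and DESeq2 calls include replicate 8, and these tests were not run without it. Without replicate 5, 3 members passed (4.26% of all genes).

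After sleep deprivation 16 of 30 members were higher in Mef2c-cKO than in Mef2c f/f cortex and none was lower. Of all 12774 genes tested, 9.1% were higher and 5.99% lower, and the members had a median difference of 0.42 (log2) against 0.01 over all genes. The groups did not overlap for 20 members in the higher direction (21.6% of all genes) and for 1, Gpr34, in the lower (18.7%).

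All 3 C1q chains were higher, C1qa less stably than the others. C1qb was at 15.5, 15.1 and 15.4 in Mef2c f/f SD and at 22.4, 28.4 and 23.6 in Mef2c-cKO SD (0.67 ± 0.10, adjusted p = 0.00437, n = 3 and 3, limma). The differences of C1qa (0.58 ± 0.13, adjusted p = 0.0195) and C1qc (0.53 ± 0.08, adjusted p = 0.00554) were of like size, and no Mef2c f/f library reached a Mef2c-cKO library for any chain. C3 stayed low, at 0.184 to 0.260 in Mef2c-cKO SD and 0.018 to 0.109 in Mef2c f/f SD, and was not tested.

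Among the receptors, Trem2 and its adaptor were both higher. Trem2 was at 5.02, 5.13 and 4.99 against 6.93, 8.26 and 7.98 (0.56 ± 0.10, adjusted p = 0.0102). Tyrobp was at 8.81, 8.77 and 9.01 against 13.4, 14.8 and 13.5 (0.62 ± 0.08, adjusted p = 0.00307). Both genes were nearly constant in Mef2c f/f SD and higher than that in every Mef2c-cKO SD library. Against Mef2c f/f CS the pair differed. The Trem2 values of Mef2c-cKO SD lay inside the Mef2c f/f CS range of 6.16 to 8.86, so its difference reflects low values in Mef2c f/f SD as well. Those of Tyrobp lay above the Mef2c f/f CS range of 8.64 to 11.4. Fcer1g, the signalling chain shared by Fc receptors, rose by 0.59 (adjusted p = 0.0148), Csf1r, the growth factor receptor on which microglia depend, by 0.38 from 56.4, 58.7 and 53.8 to 71.4, 75.5 and 73.7 (adjusted p = 0.00648), Tmem119 by 0.55 (0.0201), P2ry13 by 0.38 (0.0382) and the fractalkine receptor Cx3cr1 by 0.31 (0.0311). P2ry12 did not pass, at 33.7, 31.1 and 35.4 against 35.0, 33.4 and 33.8 (0.03, 95% interval -0.14 to 0.20, adjusted p = 0.802). Gpr34 was lower in every Mef2c-cKO library, at 11.01, 10.96 and 10.3 against 12.4, 11.9 and 13.5, but did not pass (-0.22, adjusted p = 0.126). Fcgr3, Itgam, Itgb2, Siglech and Selplg did not pass either, with Itgam at 14.8, 14.6 and 15.2 against 15.1, 15.3 and 14.1. A rise was thus not shared by all markers of microglia, although the difference between P2ry12 and the others was not tested.

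The lysosomal and phagocyte genes included the largest difference. Lyz2 was at 4.19, 3.66 and 3.11 in Mef2c f/f SD and at 9.04, 9.39 and 9.68 in Mef2c-cKO SD (1.26 ± 0.12, adjusted p = 0.000676), with the groups far apart. The Mef2c f/f CS libraries lay between these groups, at 4.81 to 7.58, so part of the gap is the low level in Mef2c f/f SD. Laptm5, a lysosomal membrane protein of leukocytes, was higher by 0.46 (adjusted p = 0.0286), Ctss by 0.44 (0.0206) and Mpeg1 by 0.43 (0.0132), and Cd68 did not pass (0.53, adjusted p = 0.0541). Spi1, the gene of PU.1, was at 1.80, 2.01 and 1.68 against 3.03, 2.70 and 2.89 (0.54 ± 0.13, adjusted p = 0.0244), and Ptprc at 6.38, 5.75 and 7.20 against 11.01, 10.96 and 8.26 (0.60 ± 0.14, adjusted p = 0.0225). Of the other leukocyte signalling genes, Aif1, Cd53, Inpp5d and Ly86 did not pass. The PU.1 core shown above was present for 7 of 11 members with a window that were higher here and for 9 of 14 of the remaining members with a window. Mrc1, at 15.9, 13.3 and 12.6 against 11.9, 9.85 and 7.70, lay without overlap above Mef2c f/f but did not pass (0.50, adjusted p = 0.0621), and Cd163 gave 0.34 (adjusted p = 0.231).

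**Figure D5:**
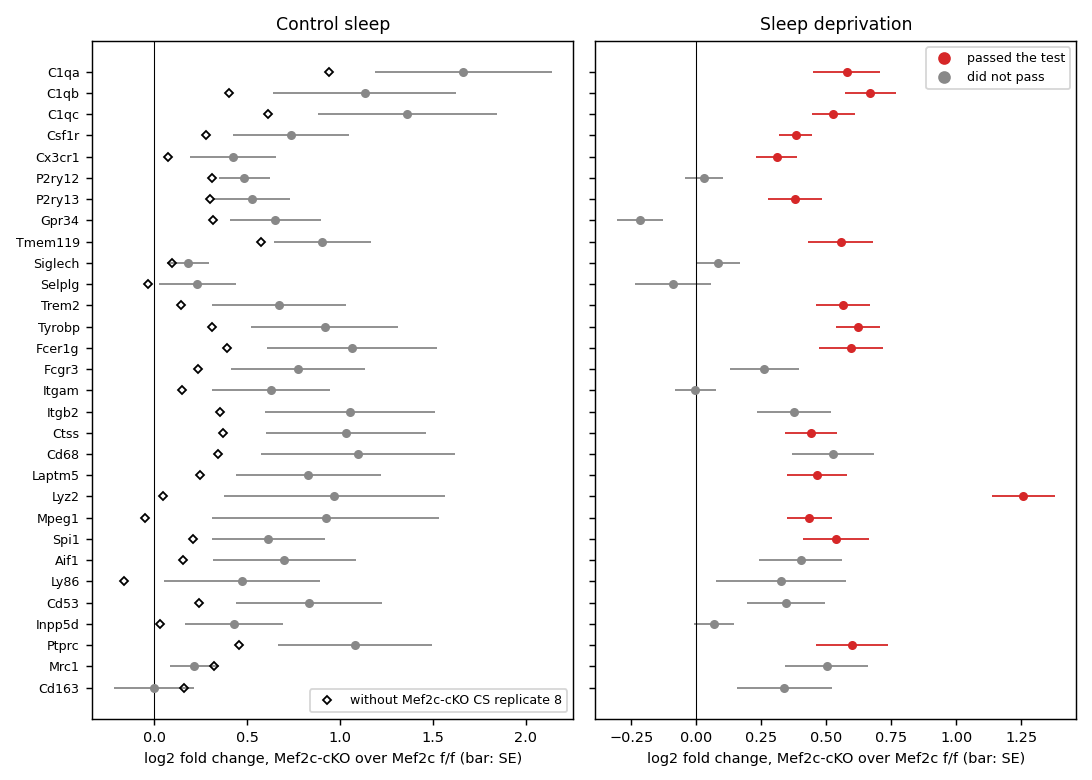
Log2 fold change of Mef2c-cKO over Mef2c f/f for each tested member under control sleep (left) and after deprivation (right), with bars of 1 SE and with different ranges on the horizontal axes. Red points passed the test, and open diamonds on the left give the value without Mef2c-cKO CS replicate 8. After deprivation 16 members passed with Lyz2 furthest to the right, and on the left every point with all libraries lies at or above 0, with long bars. Most diamonds, which have no bars, lie nearer to 0 than their points. Those of Ly86 (-0.16), Mpeg1 (-0.051) and Selplg (-0.034) lie below 0.

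C1qb, C1qc, Csf1r, Tyrobp, Mpeg1 and Lyz2 passed under every alternative tried and with any single library of the comparison left out, and Trem2 under all but quantile normalization. Other calls ended when 1 library was left out. Cx3cr1 passed in 0 of 6 such fits, P2ry13 only without Mef2c-cKO SD replicate 6, and C1qa and Ctss not without Mef2c f/f SD replicate 1, 2 or 3. Tmem119 did not pass without any of these 3 or without Mef2c-cKO SD replicate 5, Spi1 without Mef2c f/f SD replicate 1 or 3 or Mef2c-cKO SD replicate 5 or 7, and Ptprc without Mef2c f/f SD replicate 1 or 2 or Mef2c-cKO SD replicate 5. Laptm5 did not pass without Mef2c f/f SD replicate 1 or 3 or Mef2c-cKO SD replicate 7, and Fcer1g without Mef2c f/f SD replicate 1. After the GC correction C1qa was at 0.37 (adjusted p = 0.0984). The count depended on single libraries, with 7 members left without Mef2c f/f SD replicate 1 and 9 without replicate 3. It was 8 of 30 with quantile normalization and 10 with the GC correction, all higher in both. Of all genes 11.2% and 15.0% passed there, in either direction. The split over all genes also moved with the scale, from 60.3% of calls higher to 77.5% with CPM as deposited, 48.9% with quantile normalization and 43.0% with the GC correction.

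Other genes of phagocytes gave a like picture in the same comparison. Of 48 other microglial genes 15 were higher and 1 lower (median 0.39), among them Cyth4 (0.83), Cd84 (0.72), the endotoxin receptor Tlr4 (0.70) and the transcription factor gene Sall1 (0.70). Of 18 genes of activated microglia 7 were higher, led by Spp1, which encodes osteopontin, at 1.38 and Gpnmb at 0.89. The other complement genes were divided, with 4 of 18 higher and 4 lower: C4b was at 17.6 to 25.8 in Mef2c-cKO SD against 5.84 to 7.17 (1.60) and the receptor gene C3ar1 rose by 0.67, while C1ra, a protease of the C1 complex, fell by 1.30 and C7 by 0.68. The astrocyte gene Gfap was higher as well, at 143, 364 and 111 against 50.5, 47.4 and 43.8. Erythroid genes did not pass (0 of 5, with sums of 76.0 to 142 against 56.4 to 105), whereas meningeal fibroblast genes were positive for 8 of 8, with Aldh1a2 higher (1.24) and sums of 91.6 to 128 against 65.2 to 98.4. Of the choroid plexus markers 2 of 3 tested were higher (Aqp1 by 1.87 and Kl by 1.08). The part of these cells in the members' differences was not tested.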

How the data were processed

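RNA of the frontal cortex was sequenced as stranded, paired-end mRNA libraries. According to the methods of the study, the authors used STAR and mm10 for the alignment of trimmed reads, took unique reads per gene with HTSeq (the strand setting is not given in the sources used here) and computed CPM with edgeR. The deposited values are CPM, that is, reads scaled by the total of each library. All 711645 values came out as whole reads (tolerance 0.01 reads) once divided by the value of 1 read, and these recovered reads served the count tests.

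CPM was divided by a median-of-ratios factor over 11570 genes and tested as log2(CPM + 0.5) with limma 3.58.1 (trend, R 4.3.3), within the compared groups only. A gene was tested where every replicate of a compared group reached 1 CPM. Alternatives used edgeR 4.0.16 and DESeq2 1.42.0 on the recovered reads, other pseudocounts, filters and scalings, a GC and length correction, a replicate block, and each library left out. On simulated data 99 to 100% of 200 changed genes were recovered in each comparison of groups, which served as a self-test of the fits. How many differences would be found at the spread between these mice was not tested.

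The members and gene lists were chosen with earlier results of these data known, so counts over them are descriptions. Every member was named. Members that passed, and those close to the threshold or central to a comparison, were given values in each comparison, the others by range or name only. Of other lists at most 4 genes per comparison were named, by size among those called. Genes, strands and lengths came from GENCODE for mm10, and 2335 of 21565 symbols had no match. Promoters came from RefSeq.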

Additional observations from a re-analysis of the deposited data

Results flagged for a closer look

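Within groups of 4 to 7 libraries, 125 sets of values of a member were examined for a library far from the others by Dixon's ratio, and 9 stood apart. Chance alone gives about 1 in 20. C3 in WT CS replicate 2 was at 22.2 rescaled CPM, with the other WT CS libraries at 0.025 to 0.332. Replicate 1 of the WT groups gave most of the others. C1qb (26.2) and Cx3cr1 (34.6) were high in WT CS replicate 1, P2ry12 (46.8) and Ly86 (8.75) in WT SD replicate 1, and P2ry12 (82.8) and Ptprc (8.20) in WT RS replicate 1. In Mef2c f/f CS mice Trem2 was high in replicate 4 (8.86, others 6.16 to 6.57), and Cd53 was low in replicate 2 (5.18, others 7.14 to 7.50).

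The effect of deprivation differed between Mef2c f/f and WT mice by the interaction test for P2ry12 (1.13, adjusted p = 0.0411), Gpr34 (0.80, adjusted p = 0.0285), Trem2 (-0.74, adjusted p = 0.0462) and Lyz2 (-1.77, adjusted p = 0.0073). After the GC correction only Lyz2 of these passed, with a replicate block none did, and with 1 library left out P2ry12 and Trem2 each passed in 7 of 20 fits, Gpr34 in 16 and Lyz2 in all 20.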

How the results depend on the processing

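Of 1285 recomputed fold changes of members given in the text, over 65 pairs of a member and a comparison, 1058 kept direction and side of the threshold, 166 lost and 54 gained significance, and 7 changed sign. Depth limits C3, Pf4 and Cd163 most, which had as few as 1, 5 and 9 reads in a library, and Spi1 and Itgb2 had as few as 51 reads in Mef2c f/f.

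Members called, WT CS to SD (9), became 19 with CPM as deposited (53.5% of all genes) and 4 with a minimum of 5 CPM in every library (42.9%). The median (0.10) became 0.36 as deposited, -0.083 with quantile normalization and -0.12 after the GC correction. For WT CS to RS (4) the count was 7 as deposited (20.9% of all genes) and 1 after the GC correction (5.05%). It was 2 each with quantile normalization (13.5%), with no filter (1.99%), with the stricter minimum (19.2%) and in edgeR (12.7%). Its medians were 0.29 as deposited and -0.051 with quantile normalization or GC correction. In Mef2c f/f DESeq2 called 3 (3.76% of all genes). Mef2c-cKO against Mef2c f/f in CS (0) gave 3 as deposited (9.68% of all genes), 2 in edgeR (8.41%) and 12 in DESeq2 (16.5%). In SD (16) it gave 8 with quantile normalization and 10 after the GC correction, with medians (0.42) of 0.49 as deposited, 0.30 with quantile normalization and 0.34 after the GC correction. The Mef2c f/f minus WT interaction (4) gave 2 with the stricter minimum and 2 after the GC correction, and its median (-0.09) was -0.32 as deposited, 0.091 with quantile normalization, 0.17 with the stricter minimum and 0.12 after the GC correction. After the GC correction the sign changed for C1qa (-0.27) and C1qb (-0.42) in WT CS to SD, Trem2 (-0.015) and Selplg (-0.085) in WT CS to RS, and P2ry12 (-0.065) and Gpr34 (-0.011) in Mef2c f/f. P2ry12 in Mef2c-cKO against Mef2c f/f in SD ranged from -0.020 (without Mef2c f/f SD replicate 2) to 0.072 as single libraries were left out. Beyond fewer genes tested under the stricter minimum, the cause was not tested.

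Leaving out 1 library gave 7 to 11 members called in WT CS to SD, 0 to 8 in WT CS to RS, 0 to 1 in Mef2c f/f CS to SD, 0 to 3 in Mef2c-cKO against Mef2c f/f in CS, 7 to 16 in SD, 1 to 6 in the Mef2c f/f minus WT interaction and 0 in the others. In WT CS to RS none was left without WT CS replicate 2 or 3 or WT RS replicate 3, 4, 5, 6 or 12, 1 without WT CS replicate 1, and 8 without WT CS replicate 6 or WT RS replicate 1. Medians ranged from 0.05 to 0.20 in WT CS to SD, 0.04 to 0.15 in WT CS to RS, -0.03 to 0.05 in WT SD to RS, 0.02 to 0.12 in Mef2c f/f, -0.70 to 0.18 in Mef2c-cKO, 0.26 to 1.08 and 0.39 to 0.46 between these genotypes in CS and SD, -0.68 to 0.13 in the interaction of Mef2c-cKO and -0.14 to -0.04 in that of Mef2c f/f with WT.

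Replicate numbers are shared between sleep groups, but no comparison had every same-numbered pair correlated above 0.1, so the numbers were not treated as pairs. With a replicate block 1 member (Lyz2) was called in WT CS to SD, 8 in WT CS to RS and 0 in the Mef2c f/f minus WT interaction, and 0 elsewhere. No paired analysis was possible between Mef2c-cKO and Mef2c f/f because the groups share no numbers.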
